A study of Mus musculus with 8 samples.

Results

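S-phase cycling progenitors are cells of the adult hippocampal stem cell niche whose RNA placed them in S phase, when DNA is copied. DNA synthesis itself was not measured. Of the 8087 cells measured, 138 were counted as such, 68 of 3049 in the Control library and 70 of 5038 in the TBI library. They were chosen by their own UMIs. A UMI is a random tag that marks 1 captured RNA molecule, and all percentages of UMIs leave out the nuclear transcript Malat1. A cell had at least 200 detected genes, at least 0.1% of its UMIs in the cycling genes Mki67, Top2a and Cdk1 as a sum, less than 0.05% in the endothelial, oligodendrocyte precursor and microglial genes Flt1, Cldn5, Pdgfra and Cx3cr1, and at least as many UMIs in 8 S genes (Hist1h1a, Hist1h1b, Hist1h2ab, Esco2, Tk1, Rrm2, Tyms and Cdca5) as in 7 M genes (Cenpa, Cdc20, Ccnb1, Ccnb2, Cenpe, Hmmr and Aspm). Levels of these genes therefore describe the choice and are no finding. Cycling cells with fewer S than M UMIs, called mitotic below, served for comparison (107 cells, 58 Control and 49 TBI).

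The cells came from the dentate gyri of Nestin-GFP mice aged 8 weeks, taken 15 days after a craniotomy alone (sham, here Control) or after a craniotomy and a unilateral controlled cortical impact of 1 mm depth at 5.50 m/s with a dwell time of 300 ms (TBI). All animals of both groups carried GFP under Nes control elements (Nes encodes a filament protein found in neural stem cells), and the sort on GFP set which cells entered the libraries. The animals of a group were pooled before sorting (the labels list 4 Control and 4 TBI animals and the study's methods give other numbers), so each condition is 1 library and cells cannot be assigned to animals. With no replicates no test between conditions is possible: the 95% intervals below (exact Poisson for levels, Clopper-Pearson for shares, the conditional binomial interval of 2 Poisson sums for ratios) cover counting error only, and the effect of TBI cannot be told apart from that of the library. The Control table holds 24723113 UMIs in 3086 barcodes and that of TBI 31543330 UMIs in 5081 barcodes. The libraries share 3 barcodes, and 0 S-phase cells carry one of them.

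In the adult dentate gyrus, radial glia-like stem cells give rise to intermediate progenitors that divide and then become neuroblasts and granule neurons. A dividing cell first licenses its replication origins with the MCM helicase, then opens them and copies the DNA with polymerases that are held on the strand by the PCNA clamp, while ribonucleotide reductase and thymidylate synthase supply the nucleotides and new histones package the copies. The E2F factors switch on most of these genes before S phase, and a later wave of genes for the spindle and chromosome segregation follows in G2 and mitosis, many of them through CHR elements and NF-Y boxes in their promoters.

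The promoters of genes on either side of this switch are shown first. Genes at least 1.5-fold higher and those at least 1.5-fold lower in S-phase than in mitotic cells differed in the share of promoters with E2F and CHR letters. The sequences are from RefSeq (table for GRCm38.p6, 250 bases before to 50 bases after each start site) and are written 5′ to 3′ along the gene's strand. Capitals mark E2F letters (TTCCCGC or TTGGCGC) in Mcm6, Hells and the first stretch of Mki67, CHR letters (TTTGAA, written TTCAAA where they lie on the other strand) in Ube2c, Cdkn3 and the second stretch of Mki67, and an NF-Y box (CCAAT) in Hist1h1b. The Mcm6 stretch is at chr1:128359730-128359766 on the minus strand, with its capitals starting 46 bases before the start site, and that of Hells is at chr19:38930914-38930950 on the plus strand, 61 bases before it. Those of Ube2c (chr2:164769885-164769920) and Cdkn3 (chr14:46760415-46760450) lie on the plus strand, 29 and 111 bases before the start. The stretches of Mki67 (chr7:135716425-135716461 and chr7:135716457-135716492) and of Hist1h1b (chr13:21780659-21780693) lie on the minus strand, with capitals 67, 98 and 53 bases before the start.
Mcm6: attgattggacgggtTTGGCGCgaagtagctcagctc
Hells: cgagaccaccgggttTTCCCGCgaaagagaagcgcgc
Ube2c: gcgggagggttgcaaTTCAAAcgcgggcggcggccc
Cdkn3: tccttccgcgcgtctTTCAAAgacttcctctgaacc
Mki67, E2F letters: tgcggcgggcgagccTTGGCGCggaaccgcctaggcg
Mki67, CHR letters: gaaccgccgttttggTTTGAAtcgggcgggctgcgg
Hist1h1b: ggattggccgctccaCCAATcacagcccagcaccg

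The marker genes of S phase that follow are genes of the rule, so their values describe the cells chosen and are no check of the label. Mki67, the proliferation antigen, was measured at 879 CPM (UMIs per 1000000 UMIs, summed over the S-phase cells of a library) in Control and 809 in TBI. Esco2, an acetyltransferase that closes cohesin around sister chromatids during replication, was at 421 and 416 CPM, and Hist1h1b, a linker histone, at 1489.6 and 1319.9 CPM. To compare shares of cells at 1 depth, each cell was thinned at random to 5000 UMIs, which left 65 Control and 66 TBI cells. The DNA-unwinding enzyme gene Top2a then had a UMI in 100% of the cells of either library, Mki67 in 93.8% and 89.4%, and Hist1h1b in 93.8% and 95.5%. Tk1, the thymidine salvage kinase, was found in 63.1% (95% interval 50.2 to 74.7) and 50.0% (37.4 to 62.6), and without thinning in 92.6% and 77.1% of the cells at median depths of 19349.5 and 13403.5 UMIs. In oligodendrocytes, which do not divide, thinned in the same way, Top2a was found in 0.438% and 0.326% of the cells and Tk1 in 0 of 457 Control cells (interval up to 0.804%) and 0.109% of 920 TBI cells.

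The rule had no gap at its limits. At 0.09% to 0.1%, just under the cycling limit, lay 8 Control and 8 TBI cells, and the S genes made up 50% to 60% of the S and M UMIs in 8 Control and 10 TBI S-phase cells. The lowest S-phase cells held 0.103% (Control) and 0.101% (TBI) of their UMIs in the 3 cycling genes, and the highest cells outside held 0.0989% and 0.0993%. The 8 S genes had a median of 65.5 UMIs per Control cell (range 3 to 121) and 44 per TBI cell (1 to 96), and the 7 M genes a median of 11 and 8.5. The S and M counts were within 3 UMIs of each other in 3 Control and 5 TBI cells. Seen as a share of a cell's UMIs, the S genes had a median of 0.352% in Control and 0.3001% in TBI, with quartiles of 0.287% to 0.432% and 0.232% to 0.375% that overlap. The cells formed a continuous spread from nearly no M genes to an equal number, with 1 Control and 2 TBI cells at 0 M UMIs.

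**Figure D1:**
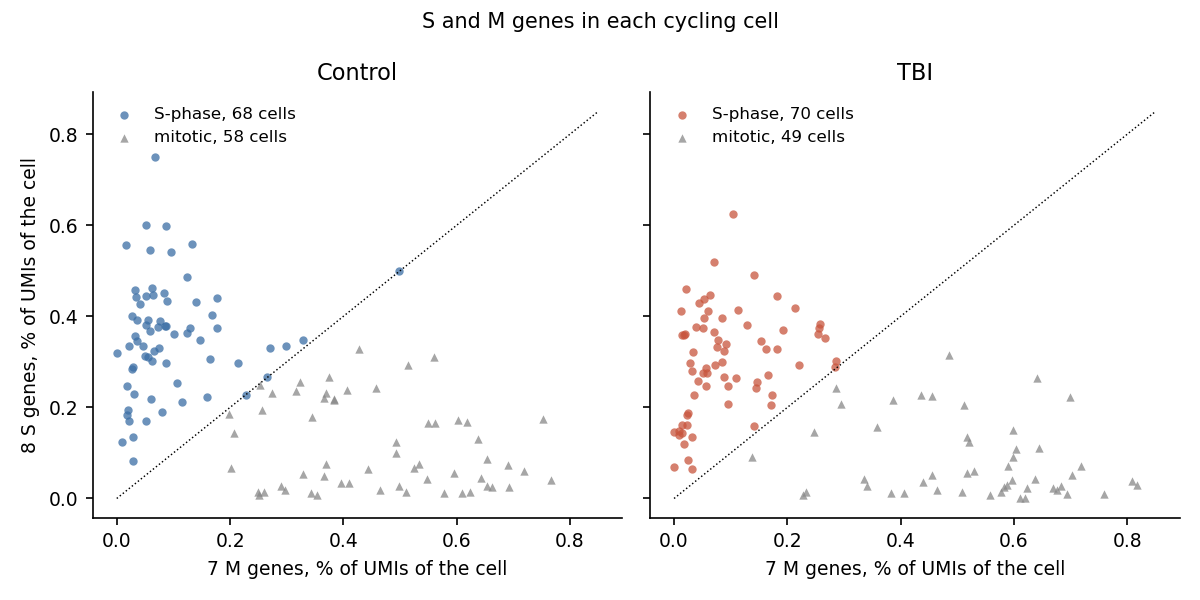
Each point is 1 cycling cell, with the 7 M genes (horizontal axis) and the 8 S genes (vertical axis) as a percent of its UMIs, in the Control and the TBI library. S-phase cells (68 and 70, coloured circles) lie on or above the dotted line of equality by the rule, and mitotic cells (58 and 49, grey triangles) below it.

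S-phase cells made up a smaller share of the TBI library than of the Control library. Control cells were in S phase in 2.23% of cases (interval 1.74 to 2.82) and TBI cells in 1.39% (1.08 to 1.75), a ratio of 0.623 (0.440 to 0.883). Among S-phase, mitotic, RG-like cells and neuroblasts counted together, the share was 8.83% (6.92 to 11.1) in Control and 5.81% (4.56 to 7.28) in TBI, a ratio of 0.658 (0.464 to 0.932). The share of mitotic cells was also lower in TBI, at 1.90% against 0.973% of all cells, a ratio of 0.511. Within the cycling cells the balance of S-phase to mitotic was near equal, with 54.0% in S phase in Control (44.9 to 62.9) and 58.8% in TBI (49.4 to 67.8), and the intervals overlap. TBI cells were 50.7% of the S-phase cells (42.1 to 59.3) and 62.3% of all cells.

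This difference went together with the depth of the cells. The median S-phase cell held 19349.5 UMIs from 5137 genes in Control and 13403.5 UMIs from 4342 genes in TBI, while their mitochondrial share was 6.16% and 6.26%. The comparison groups were deeper in Control too, with medians of 20387.5 and 11724 UMIs in mitotic cells and 14027 and 10723 in RG-like cells. In neuroblasts the medians were 11071 and 8364 UMIs, and in oligodendrocytes 10351 and 8455. More than 5000 genes were detected in 39 of the 68 Control S-phase cells and in 6 of the 70 TBI ones. A cut at 5000 genes therefore takes out far more S-phase cells of the deeper Control library. With cells above 5000 genes left out of every count, 29 Control and 64 TBI S-phase cells remained. The ratio of shares turned to 1.28, the direction opposite to that over all cells. Thinning every cell to 5000 UMIs before the rule gave 3.58% in Control and 2.57% in TBI of the cells deep enough, a ratio of 0.717. The part of depth in the ratio was not tested. Scrublet, which compares cells with simulated pairs, called 0 Control and 1 TBI S-phase cell a doublet.

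Next, S-phase cells were set beside mitotic cells within each library. Since the rule split them by 15 S and M genes, the following describes what went with that split and tests nothing. Of 2829 genes that reached 100 UMIs per library over both groups, 159 (5.62%) were at least 1.5-fold higher in S-phase cells in both libraries and 175 (6.19%) at least 1.5-fold lower, and the median log2 ratio of all genes was 0.01 in Control and 0.03 in TBI. All 21 genes for DNA polymerases and the replication fork that could be compared were higher (median log2 ratio 1.60 in Control and 1.92 in TBI). So were 9 of 10 genes of origin licensing and the helicase (1.66 and 1.80), 12 of 14 of nucleotide supply, a list with 3 genes of the rule (1.12 and 1.31), and 7 of 8 of replication stress and homologous recombination (1.23 and 1.39). None of 41 other mitosis genes was higher and 26 were lower (−0.78 and −1.03).

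The licensing genes show the range. Cdt1, which loads the MCM ring onto origins, was at 143 and 104 CPM in S-phase cells of Control and TBI and at 8.92 and 5.06 CPM in mitotic cells, ratios of 16.05 and 20.5. Mcm6, a subunit of the helicase, was at 523 and 447 CPM against 123 and 74.2. Gmnn, whose product geminin blocks relicensing, was 2.21-fold and 2.41-fold higher in S-phase cells. Cdt1 was under the minimum of 100 UMIs in TBI and is not among the genes counted. The exception was Dbf4, the activator of the origin-firing kinase Cdc7, with 133 and 135 CPM in S-phase cells and 253 and 324 CPM in mitotic cells. Cdc7 itself, also under the minimum in TBI, was 1.57-fold and 2.05-fold higher in S-phase cells, so partners of 1 kinase lay on opposite sides in both libraries.

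At the fork, Pcna, the sliding clamp, was at 367 and 324 CPM in S-phase cells of Control and TBI against 68.7 and 43.9 in mitotic cells. Pclaf, a PCNA-binding factor, was at 1552 and 1531 CPM against 488 and 452. Chaf1b, a subunit of the chaperone that places histones behind the fork, was 11.8-fold and 15.7-fold higher, and Lig1, the ligase that joins Okazaki fragments, 3.94-fold and 7.14-fold. Clspn, which carries the checkpoint signal from stalled forks, was 3.87-fold and 4.43-fold higher. Among the genes of nucleotide supply outside the rule, Dut, which removes dUTP, was at 1088 and 1135 CPM against 429 and 417. Tcf19, a gene expressed at the G1/S boundary, and Zfp367, a zinc finger factor, were 12.7-fold and 6.68-fold higher in Control and 10.8-fold and 11.4-fold in TBI. E2f1, the activating E2F factor, was 4.09-fold and 8.27-fold higher.

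Chromatin genes lay on both sides. Slbp, which binds the stem-loop that ends replication-dependent histone mRNAs, was 5.39-fold and 5.64-fold higher in S-phase cells of Control and TBI, and Hells, a chromatin remodeller needed for DNA methylation, 3.96-fold and 7.04-fold. Uhrf1, which brings the maintenance methyltransferase to new DNA, was 3.47-fold and 4.69-fold higher. In all, 5 of 21 chromatin maintenance genes were higher and 2 lower (Hmgb2, a chromatin-bending protein, and the histone H4 methyltransferase gene Kmt5a), and 3 of 17 cohesin and condensin genes were higher and 2 lower. Of the 64 replication-dependent histone cluster genes outside the rule, 10 could be compared and 5 were higher in S-phase cells and 0 lower, and the 64 summed to 5609 and 4252 CPM against 3373 and 2574 in mitotic cells. Most such histone mRNAs carry no poly(A) tail and the 3′ kit primes on poly(A), and many of the genes are nearly identical in sequence, so their counts are uncertain gene by gene.

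Of the 12 genes furthest below mitotic cells, Ube2c, Cenpf, Cdkn3, Aurka and Arl6ip1 are in the list of other mitosis genes and the remaining 7 are in no list. Ube2c, the ubiquitin carrier of the anaphase-promoting complex, was at 325 and 339 CPM in S-phase cells of Control and TBI and at 1399.9 and 1405 CPM in mitotic cells. Cenpf, a kinetochore protein of G2 and mitosis, was at 728 and 771 CPM against 2334 and 2893. Cdkn3, a phosphatase of cyclin-dependent kinases, was at 0.145 and 0.153 times the mitotic level, and Aurka, the centrosome kinase, at 0.305 and 0.292 times. Tuba1c, a tubulin whose close paralogs could share reads with it, was at 0.0374 and 0.0999 times, with only 9 and 18 UMIs in S-phase cells. Cks2, Arl6ip1, Gas2l3, Bora, Dlgap5, Nde1 and Cep89 made up the rest of the 12 genes furthest below, at 0.105 to 0.280 times the mitotic level for Cks2, Arl6ip1 and Cep89.

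**Figure D2:**
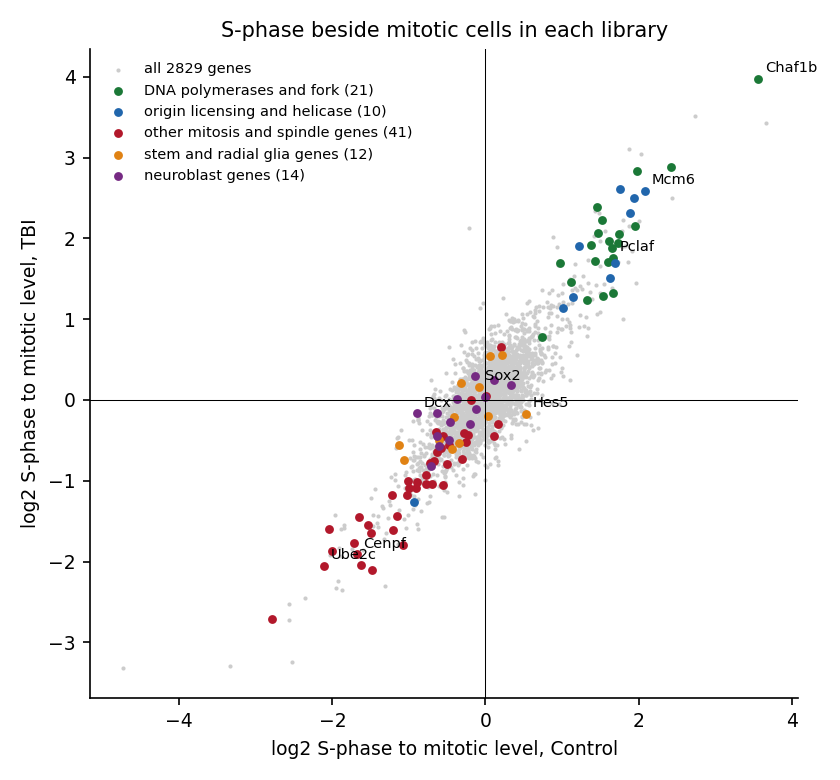
Each point is 1 of 2829 genes, with the log2 ratio of its level in S-phase to mitotic cells in Control (horizontal axis) and in TBI (vertical axis), and gene lists in colour without the genes of the rule. The 21 polymerase and fork genes lie at the upper right in both libraries, 1 licensing gene (Dbf4) lies at the lower left, and 26 of 41 mitosis genes lie at least 1.5-fold below in both.

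E2F letters were more frequent in promoters of the higher genes and CHR letters in those of the lower genes, while the NF-Y box was above the share of all compared genes on both sides. In the whole table of 32851 promoters, searched on both strands, E2F letters were found in 6.81%, CHR letters in 17.9% and an NF-Y box in 37.4%, and an NF-Y box on the other strand can share bases with TTGGCGC. Of the genes compared, 2291 of 2829 had an entry, with 19.0% for E2F, 15.98% for CHR and 45.5% for NF-Y. The 133 of 159 genes higher in S-phase cells that had an entry held E2F letters in 47.4%, CHR letters in 13.5% and an NF-Y box in 57.9%. The 144 of 175 lower genes with an entry held them in 14.6%, 39.6% and 70.8%. The 8 S genes of the rule are among the higher genes and the 7 M genes among the lower. Without the genes of the rule the shares were 49.2%, 12.7% and 57.9% of the 126 higher genes with an entry and 14.6%, 37.96% and 69.3% of the 137 lower ones, beside 18.95%, 15.7% and 45.3% of all 2274 compared. Of the S genes of the rule, 7 of 8 had an entry, and E2F letters stood in 1, CHR letters in 2 and an NF-Y box in 4 of them, while the 7 M genes held E2F letters in 1, CHR letters in 5 and an NF-Y box in 7. A match is a run of letters and not a measured binding site.

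The share of early S genes also varied from one S-phase cell to another. The 14 early S genes (Mcm2 to Mcm7, Cdc6, Cdt1, Ccne1, Ccne2, Gins2, Pcna, Slbp and Uhrf1) took a median of 0.353% of a cell's UMIs in Control (quartiles 0.247% to 0.432%) and 0.326% in TBI (0.233% to 0.398%). In mitotic cells the medians were 0.0815% and 0.0602%. Ccne1, the cyclin that starts S phase, was at 86.7 and 67.4 CPM in S-phase cells and at 8.02 and 1.69 CPM in mitotic cells, with too few UMIs to be counted among the genes compared. Ccna2, the cyclin of S phase and G2, was at 0.565 and 0.514 times the mitotic level. Ccnd2, the D cyclin of dentate progenitors, was nearly level, at 1977 and 1768 CPM in S-phase and 1941 and 1658 in mitotic cells.

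Genes of cell identity were past 1.5-fold in few cases, a share near that of all genes. Of 12 stem and radial glia genes compared, 0 were higher and 1 lower in S-phase cells, of 11 intermediate progenitor genes 1 was higher and 1 lower, and of 14 neuroblast genes 0 were higher and 1 lower. The median log2 ratio was −0.34 in Control and −0.21 in TBI for the stem list and −0.41 and −0.16 for the neuroblast list, beside 0.01 and 0.03 for all genes. The higher intermediate progenitor gene was Neurog2, the proneural factor of glutamatergic precursors, at 261 and 227 CPM against 132 and 123 in mitotic cells (1.98-fold and 1.84-fold). The lower intermediate progenitor gene was Tac2, a tachykinin precursor, at 70.7 and 117 against 109.7 and 223, and the lower neuroblast gene Tubb3, the neuronal tubulin, at 85.8 and 132 against 139.99 and 231. Eomes, the T-box factor of intermediate progenitors, was at 515 and 566 CPM against 490.4 and 439. At 5000 UMIs per cell Eomes was found in 78.5% of Control and 78.8% of TBI S-phase cells (0.875% and 0.217% of oligodendrocytes), and without thinning in 91.2% and 88.6%.

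UMIs of stem and of neuroblast genes were found in the same S-phase cell in under 50% of the cells. A grouping chosen after the values were seen took a UMI of Hes5, Hopx or Thrsp as a stem gene and one of Dcx, Neurod1 or Basp1 as a neuroblast gene. At 5000 UMIs, 29 of 65 Control cells held both kinds, 16 only the stem genes, 19 only the neuroblast genes and 1 neither. In TBI, 30 of 66 cells held both, 13 only stem, 21 only neuroblast genes and 2 neither. At 2000 UMIs both kinds were found in 8 of 66 Control and 13 of 69 TBI cells, so the share rests on the depth. Mitotic cells at 5000 UMIs held both in 21 of 56 and 15 of 48 cells, and oligodendrocytes in 4 of 457 and 4 of 920. The share of a cell's UMIs in the stem list ran from 0.0368% to 1.54% in Control and from 0 to 1.06% in TBI, and its medians, 0.270% and 0.284%, differed little.

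Beside RG-like cells (338 cells with Ccnd2 and stem genes such as Vim and Hes5, below the cycling limit), the widest ratios upward were those of cycle genes, which the choice of RG-like cells below the cycling limit partly fixed. Of 5051 genes, 448 (8.87%) were at least 1.5-fold higher in both libraries and 310 (6.14%) lower. All 26 polymerase and fork genes and 34 of 35 other mitosis genes were higher, where RG-like cells were chosen to hold few cycling genes, and Pttg1, the gene of the separase inhibitor securin, was lower. Hist1h2ae, a core histone, was at 1218 and 848 CPM against 29.0 and 19.0, and Aurkb, the kinase of the chromosomal passenger complex, was 26.3-fold and 18.2-fold higher. Spc25, a kinetochore subunit, was 19.3-fold and 20.6-fold higher. Of 17 stem genes, 6 were lower and 1 higher (median log2 ratio −0.43 in Control and −0.61 in TBI). RG-like cells were chosen to hold stem genes such as Vim and Hes5, which partly fixed this direction. Of 15 intermediate progenitor genes 4 were lower and 1 higher. Vim, an intermediate filament of radial glia, was at 209.6 and 245 CPM against 719.8 and 718.

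Several of the genes furthest below RG-like cells belong to vessels. Igfbp7, Myl9, Rgs5, Crip1 and Tpm2, known from endothelial, mural or smooth muscle cells, were among the 12 lowest, with Igfbp7 at 1.68 and 5.53 CPM in S-phase cells and 117 and 110.4 in RG-like cells. The 12 vessel genes listed summed to 767 CPM in Control and 612 in TBI RG-like cells, and 8 of 143 and 10 of 195 RG-like cells held them at 0.1% or more of their UMIs. Leaving such cells out gave 436 genes higher and 301 lower. For the named genes the part of vessel RNA was not tested.

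**Figure D3:**
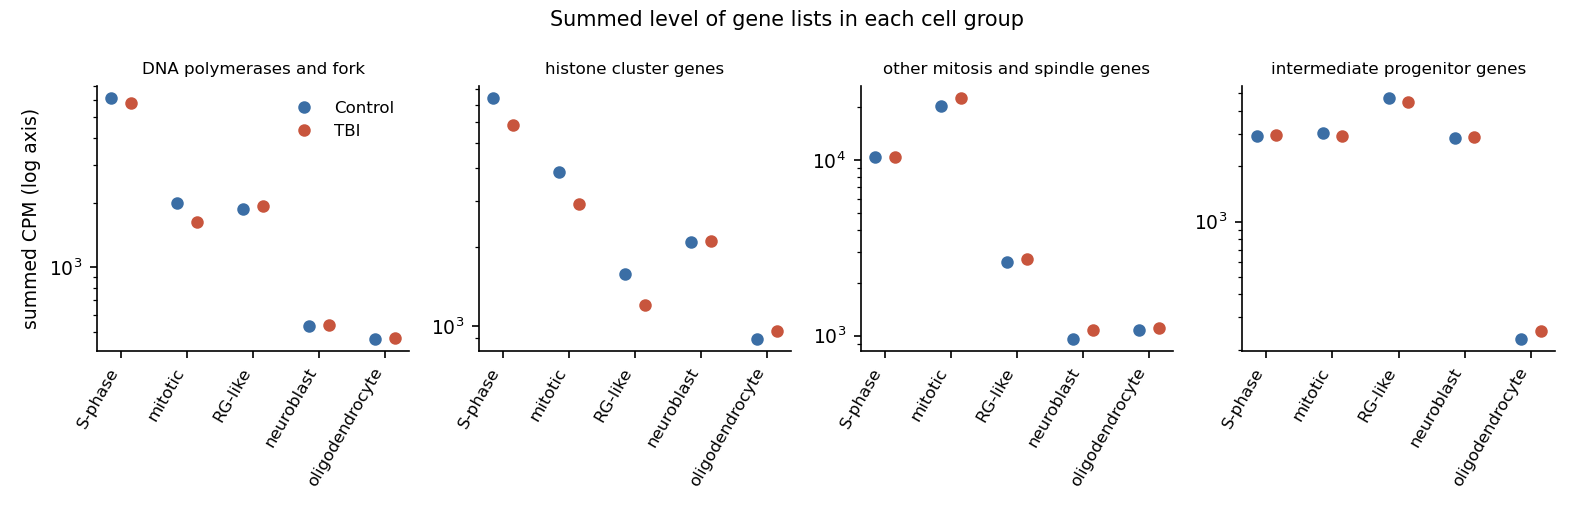
Points give the summed level of 4 gene lists (log axis, CPM) in S-phase, mitotic, RG-like, neuroblast and oligodendrocyte cells of the Control and TBI library. The polymerase list (6153 and 5864 CPM) and the histone list (7415 and 5867 CPM, with 3 genes of the rule, and 5609 and 4252 CPM without them) are highest in S-phase cells, the mitosis list in mitotic cells, and the intermediate progenitor list in RG-like cells.

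The libraries were then compared within the S-phase cells. Of the 3895 genes that could be compared (100 or more UMIs altogether and no fewer than 10 per library), 74 (1.9%) were at least 1.5-fold higher in TBI and 62 (1.59%) at least 1.5-fold lower, with a median log2 ratio of 0.02 and quartiles of −0.15 and 0.17. Lists of the replication machinery held 0 or 1 gene past 1.5-fold, a share near that of all genes, while several of their sums were below the Control level. None of 27 polymerase and fork genes was 1.5-fold higher and 1 was lower (Prim2, a primase subunit, 137 in Control and 90.65 CPM in TBI), with a median log2 ratio of −0.08. Of 17 licensing genes 0 were higher and 1 lower (Gins3, a helicase subunit, 69.01 and 40.9 CPM; median −0.09), of 17 genes of nucleotide supply 0 and 0 (0.00), and of 15 of replication stress and homologous recombination 0 and 0 (−0.06). Of 39 other mitosis genes 0 were past 1.5-fold in either direction (−0.03), and of 22 chromatin maintenance genes also 0 (−0.04). The summed TBI to Control ratio was 0.953 (0.920 to 0.988) for the polymerase and fork list, 0.915 (0.870 to 0.963) for licensing and 0.898 (0.856 to 0.942) for the early S genes. Pclaf had a ratio of 0.987 (0.920 to 1.06).

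Basp1 had the highest ratio by the bound nearest to 1. It encodes a membrane-bound protein of growth cones and lies at chr15:25363277-25413764 on the minus strand (GENCODE, GRCm38). It was measured at 125 CPM in Control (148 UMIs in 33 of 68 cells) and 302 CPM in TBI (273 UMIs in 43 of 70 cells), a ratio of 2.42 (1.98 to 2.98). At 5000 UMIs it was found in 26.2% of Control (16.03 to 38.5) and 48.5% of TBI cells (36.0 to 61.1), against 0.875% and 2.72% of oligodendrocytes. The ratio kept its side of 1 in all 12 alternatives, from 1.94 to 3.26. It was not confined to S-phase cells, since Basp1 was also higher in TBI among mitotic cells (191 and 487 CPM, 2.55), RG-like cells (1.29), neuroblasts (965 and 1437 CPM, 1.49) and oligodendrocytes (4.99 and 10.7 CPM, 2.14).

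Among the neuroblast genes, Dcx, the microtubule-binding protein of migrating neurons (chrX:143855842-143933311, minus strand), was at 162 CPM in Control (193 UMIs) and 274 in TBI (248 UMIs), a ratio of 1.69 (1.39 to 2.05). In mitotic cells the levels of Dcx were 301 and 307 CPM (1.02), and in RG-like cells 221 and 224 (1.02). Tubb3 was at 85.8 and 132 CPM (1.53, 1.17 to 2.02). These were the 2 of 14 neuroblast genes past 1.5-fold, and 0 were past it in the other direction (1.9% and 1.59% of all genes compared). The list median was 0.28 beside 0.02 for all genes. Without the 1 TBI cell that held vessel genes (described with the other cell types) 1 of the neuroblast genes was past 1.5-fold, and with a cycling limit of 0.05% 0 were. The transcription factors Sox11 (1732 and 2158 CPM) and Sox4 (1485 and 1829.5 CPM) had ratios of 1.25 and 1.23. Stmn1, a tubulin-binding protein of dividing and growing cells, had one of 1.01. Cell by cell, the share of UMIs in the neuroblast list had medians of 1.40% and 1.36%, so the summed level (13439 and 15062 CPM) and the median cell differed in direction.

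The remaining genes named by this ratio were Ifi27, Nr2f2, Smad1, Vars, Tesc, Alms1, Tmeff1, Nav1, Xpr1 and Tnrc6c. Ifi27, an interferon-induced gene, was at 56.4 and 115 CPM (2.04, 1.49 to 2.81), with 58.8 and 69.2 in mitotic cells. Its ratio was 1.18 in mitotic cells, 1.28 in RG-like cells, 1.38 in neuroblasts and 1.25 in oligodendrocytes. Smad1, which carries BMP signals to the nucleus, was at 95.9 and 168 CPM (1.75, 1.36 to 2.25), and Nr2f2, an orphan nuclear receptor, at 67.3 and 125 (1.86). The Smad1 ratio was 0.953 in mitotic cells, 1.42 in RG-like cells, 1.29 in neuroblasts and 1.002 in oligodendrocytes. Nav1, a microtubule-associated protein of axons, was at 202 and 315 CPM (1.56). Its ratio was 1.20 in mitotic cells, 1.31 in RG-like cells, 1.07 in neuroblasts and 0.964 in oligodendrocytes. Each of the 12 genes named as higher stayed above 1 in all 12 alternatives. Of 12 intermediate progenitor genes, 1 was at least 1.5-fold higher and 1 lower, beside 1.9% and 1.59% of all genes compared. The higher was Tac2, at 70.7 and 117 CPM (1.66, 1.23 to 2.23). The lower was Btg2, an antiproliferative gene of cells about to leave the cycle, at 332 and 207 CPM (0.623, 0.521 to 0.744). Nes, whose control elements drive the sorted GFP, was at 41.2 and 65.2 CPM (1.58, 1.06 to 2.36), with 49 and 59 UMIs.

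**Figure D4:**
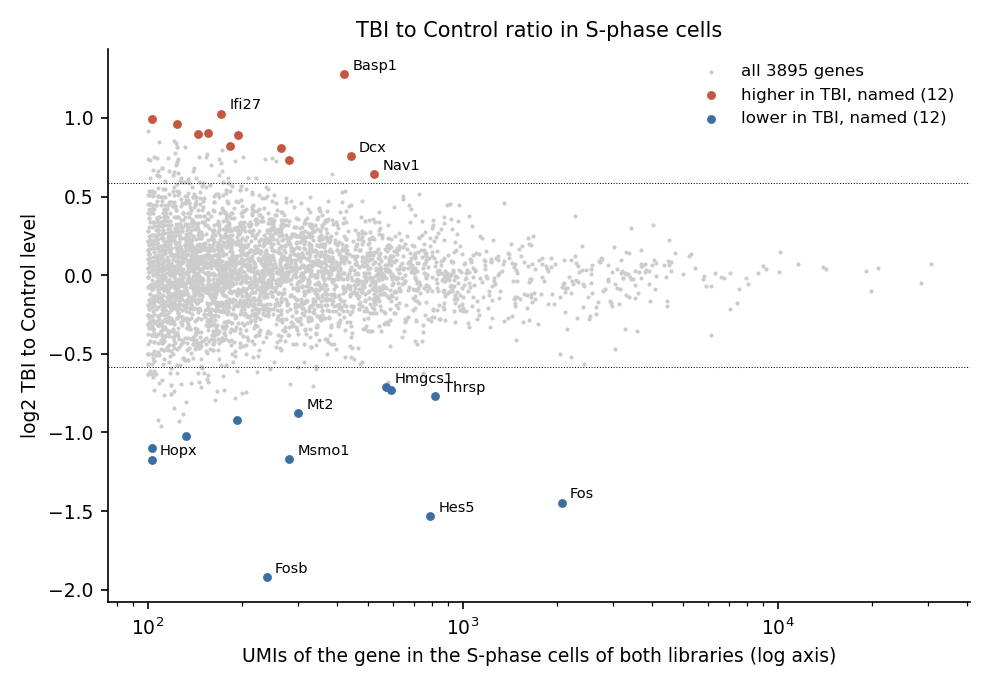
Each point is 1 of 3895 genes in the S-phase cells, with its UMIs over both libraries (horizontal log axis) and the log2 ratio of TBI to Control (vertical axis). The 12 named genes that were higher (Basp1 at a ratio of 2.42) and the 12 that were lower (Fosb at 0.264) are in colour, and the spread of all genes widens as UMIs become few.

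By the interval bound nearest to 1, Fosb and Fos, both immediate early genes, were furthest below Control (bounds of 0.372 and 0.408). The stem gene Hes5 (0.411) and the cholesterol synthesis gene Msmo1 (0.584) came next. Fosb, a subunit of the AP-1 factor, was at 167 CPM in Control (199 UMIs) and 44.2 in TBI (40 UMIs). Its ratio was 0.264 (0.183 to 0.372), and the cell with the most held 18.6% of the Fosb UMIs in Control and 17.5% in TBI. Fos, another AP-1 subunit, was at 1358 and 499 CPM, a ratio of 0.367 (0.330 to 0.408). Fos was also lower in TBI in mitotic cells (679 and 379.5 CPM) and in RG-like cells (1003 and 766). In oligodendrocytes it was higher in TBI (13.4 and 66.1 CPM, a ratio of 4.94, 3.88 to 6.37), as were Fosb (7.23) and Junb (3.78). Of 15 genes of the immediate early and dissociation list, 6 were at least 1.5-fold lower and 0 higher (1.59% and 1.9% of all genes compared). Their median log2 ratio was −0.50. Without cells over 5000 genes 2 were lower, and with every cell thinned to 5000 UMIs also 2. Jun and Egr1 were at 0.723 and 0.677 of the Control level, and the chaperones Hsp90ab1 and Hsp90aa1 at 1.09 and 1.01. These genes respond to activity and to tissue dissociation, and the dissociation of a condition was that of its pool, so these cannot be told apart here.

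Among the stem genes lower in TBI, Hes5 and Thrsp were not lower once the cells with many genes were left out. Both stayed below 1 in the other 11 of 12 alternatives, thinning to 5000 UMIs among them. Hes5, the Notch target that keeps stem cells undifferentiated (chr4:154960923-154962371, plus strand), was at 525 CPM in Control (624 UMIs in 32 cells) and 181 in TBI (164 UMIs in 23 cells), a ratio of 0.345 (0.289 to 0.411). The cell with the most held 17.6% of the Hes5 UMIs in Control and 23.2% in TBI, a spread between cells that the interval does not cover. Thrsp, a lipid synthesis gene of dentate stem cells, was at 477 and 279.7 CPM (ratio 0.586, 0.503 to 0.681), and Hopx, a homeodomain protein of quiescent radial glia, at 64.8 and 28.7 (0.444, 0.273 to 0.69985). Of 15 stem genes these 3 were at least 1.5-fold lower and Nes was higher (1.59% and 1.9% of all genes compared). The list median was −0.14. In the 39 Control cells with more than 5000 genes Hes5 was at 687 CPM, in the 29 other Control cells at 142, in the 64 TBI cells with 5000 genes or fewer at 184 and in the 6 others at 162. With the gene-rich cells left out the ratio was 1.30 for Hes5 and 1.19 for Thrsp, opposite to that over all cells, and the same held for the AP-1 gene Junb (0.493 over all cells, 1.26 without them). Hopx in the cells with 5000 genes or fewer was at 42.6 CPM in Control (23.8 to 70.2, 15 UMIs) and 29.2 in TBI (18.5 to 43.8, 23 UMIs), where the intervals overlap and the ratio of 0.686 is within 1.5-fold. Over all cells of each kind, Hes5 was also lower in TBI mitotic cells (0.561, 0.454 to 0.689) and RG-like cells (0.729, 0.672 to 0.792), and Thrsp had ratios of 0.465 (0.375 to 0.572) and 1.05 (0.974 to 1.13). Cells over 5000 genes made up 27 of 58 Control and 3 of 49 TBI mitotic cells, and 14 of 143 and 5 of 195 RG-like cells. Sox2, which marks stem cells and progenitors, was at 507 and 524 CPM.

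Fos and Basp1 did not depend on these cells in this way. Fos was at 1107 and 1464 CPM in Control cells with fewer and with more than 5000 genes and at 514 and 392 in such TBI cells. Basp1 was at 96.5 and 136 CPM in Control and at 315 and 213 in TBI, and Dcx at 167 and 160.3 in Control and at 250.2 and 435 in TBI. The intervals of Basp1 in cells with 5000 genes or fewer were 66.8 to 135 CPM in Control and 277 to 357 in TBI. They cover counting error only, and Basp1 was picked by its ratio over cells that include these, so they are no separate support.

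**Figure D5:**
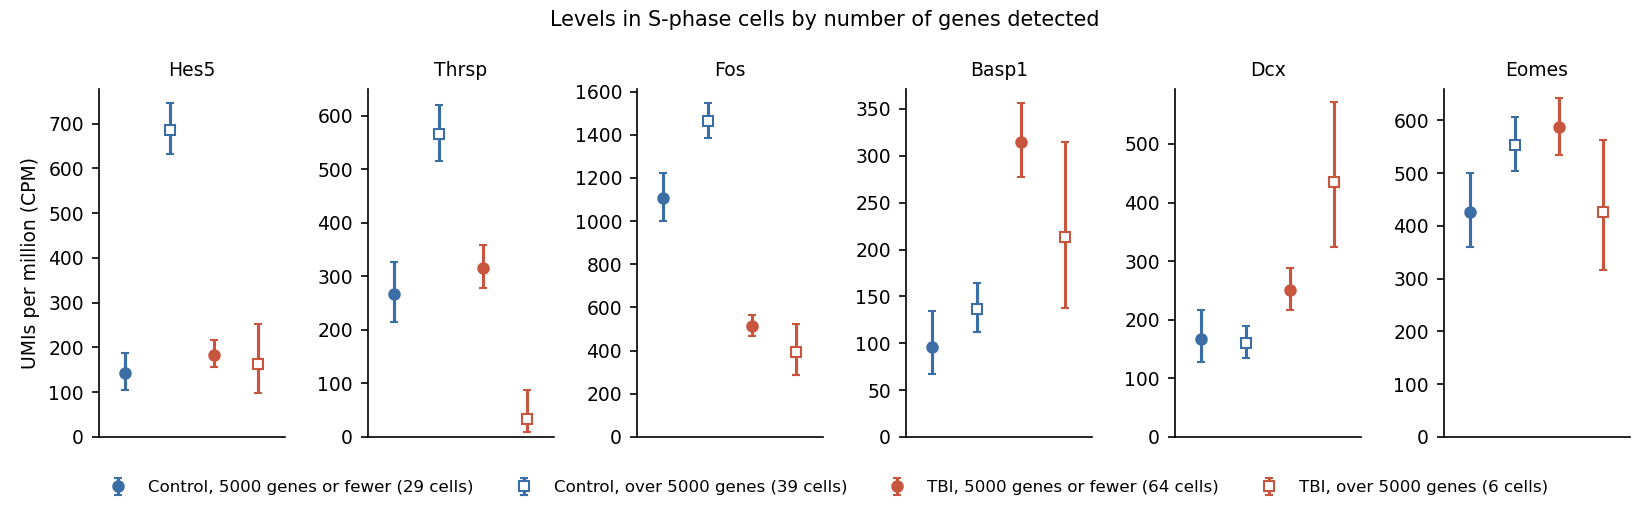
Levels (CPM, with exact 95% Poisson intervals) of Hes5, Thrsp, Fos, Basp1, Dcx and Eomes in S-phase cells of Control (29 and 39 cells) and TBI (64 and 6 cells), with 5000 genes or fewer (filled circles) and more than 5000 genes (open squares). Hes5 stands at 687 CPM only in the gene-rich Control cells, while Basp1 is above its Control levels in both TBI groups.

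Histone genes were lower in TBI in their sum, and several single genes were also lower. Of 20 histone cluster genes compared (3 of them of the rule), 4 were at least 1.5-fold lower and 0 higher (median log2 ratio −0.43). Of all genes compared, 1.59% were lower and 1.9% higher. The sum over all 67 listed histone genes was 0.791 of the Control level (0.765 to 0.819). Without the 3 genes of the rule the sum was 5609 CPM in Control and 4252 in TBI. The sum over the 67 was likewise lower in TBI mitotic (0.757) and RG-like cells (0.761), but not in neuroblasts (1.02) or oligodendrocytes (1.08). Hist1h4d, a core histone, was at 422 and 274 CPM (0.649, 0.555 to 0.757). Msmo1 and Hmgcs1, enzymes of cholesterol synthesis, were at 177 and 78.5 CPM (0.444, 0.334 to 0.584) and at 328 and 200.1 (0.610, 0.508 to 0.729). Without cells over 5000 genes the ratio of Hmgcs1 was 0.949 and that of Msmo1 0.455. Mt2, a metallothionein, was at 178 and 97.3 CPM (0.545, and 0.982 without cells over 5000 genes), Dnajb1, a heat shock cochaperone, at 115 and 60.8 (0.527, and 0.787 without those cells), and Riok2, a kinase of ribosome maturation, at 64.0 and 29.8 (0.467). A single Control cell held 26.3% of the Dnajb1 UMIs of Control. The clone-named gene AC160336.1 was at 341 and 206 CPM (0.603). It was not lower in S-phase cells alone, with ratios of 0.670 in RG-like cells, 0.662 in neuroblasts and 0.580 in oligodendrocytes. In mitotic cells its ratio was 0.819 (0.626 to 1.06).

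Vessel, microglia and hemoglobin genes were low in S-phase cells except for vessel genes in 1 TBI cell. Astrocyte genes summed to less than in RG-like cells or oligodendrocytes. The rule itself kept Flt1, Cldn5, Cx3cr1 and Pdgfra low. The 12 vessel genes had 18 UMIs in Control (15.1 CPM; 6 of them Vtn, with Pecam1, Cdh5, Kdr, Pdgfrb, Des and Col1a2 at 0) and 160 UMIs in TBI (177 CPM; 115 of them Vtn, with Pecam1, Cdh5, Kdr and Acta2 at 0). A single TBI cell of 16483 UMIs held 0.851% of its UMIs in these genes, 107 of them Vtn, and the next TBI cell held 0.0240%. Beside them the first cell held 8 UMIs of Sox2, 6 of Eomes and 15 of Top2a. It was the 1 TBI S-phase cell that Scrublet called a doublet, and it was kept among the S-phase cells. With that cell left out 71 genes were at least 1.5-fold higher in TBI and 65 lower. Microglia genes summed to 15.99 and 35.4 CPM (with C1qc, Tmem119, Ctss and Aif1 at 0 in both), oligodendrocyte lineage genes to 147 and 190.1 CPM (with Pdgfra, Gpr17 and Enpp6 at 0 in both) and hemoglobin genes to 2 UMIs in either library. Astrocyte genes summed to 1894 and 1685 CPM, with Apoe the most abundant. Their sums were 1203 and 1023 in neuroblasts, 1905 and 1339 in mitotic cells, 2781 and 3191 in RG-like cells and 3820 and 5095 in oligodendrocytes. They took up to 1.15% of the UMIs of a Control and 1.66% of a TBI S-phase cell (medians 0.125% and 0.118%). Gfap was at 24.4 and 26.5 CPM. Of the 9 astrocyte genes compared, 3 were at least 1.5-fold lower in TBI (the metallothionein genes Mt2 and Mt3, and Ndrg2) and 1 was higher, beside 1.59% and 1.9% of all genes. Their part in the differences between the libraries was not tested.

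Some genes are named by the study for its stem cell clusters or for other populations, and since it chose them on these libraries they are not independent evidence of a direction. Of 19, 0 were at least 1.5-fold higher in TBI and 1 (Hes5) was lower, beside 1.9% and 1.59% of all genes compared, with a median log2 ratio of 0.00 and a summed ratio of 0.970 (0.948 to 0.992). Hmgn2, a nucleosome-binding protein, was at 3256 and 2506 CPM (0.770, 0.730 to 0.811). Ppp1r14b, an inhibitor subunit of protein phosphatase 1, was at 555 and 764 CPM (1.38, 1.24 to 1.53), and its ratio was 1.44 in mitotic and 1.30 in RG-like cells. Ezh2, the methyltransferase of Polycomb repressive complex 2, was at 639.6 and 705 CPM (1.10, 0.991 to 1.23).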

How the data were processed

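Single-cell RNA of sorted Nestin-GFP cells was measured with the 10X Genomics 3′ v3 kit. Counting by the authors used Cell Ranger 3.0.2 and the build GRCm38/mm10 (submitters' processing notes). The deposited tables hold raw counts of UMIs per gene and barcode, 1 table per condition; barcode, gene and sample sheets hold no measurement. Each table was assigned to its condition by the barcodes that the study lists (356 of 356 Control and 320 of 320 TBI barcodes found in 1 table, 0 in the other). The rule for members and all gene lists were chosen with earlier results of these data known. Some genes are not reported here.

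UMIs were summed over the cells of a library and divided by all UMIs without Malat1 (1188241 in Control and 904597 in TBI S-phase cells). Comparison cells were chosen by percentages of UMIs without Malat1. RG-like cells held the 3 cycling genes below 0.1%, Ccnd2 at 0.1% or more, a sum of stem genes that includes Vim and Hes5 at 0.05% or more and Ntrk2, Aqp4 and Gfap below 0.05%. Neuroblasts held Neurod1 and Dcx at 0.1% or more with that sum below 0.05%, and oligodendrocytes Mbp, Mag and Mog at 0.5% or more. Genes entered the comparison of libraries from 100 UMIs altogether and 10 per library, and were called past a fold of 1.5, for which no p-value exists with 1 library per condition. S-phase cells were set beside mitotic and RG-like cells within each library, and a gene counted when past the fold in both. The text names the rule genes, list members with the most UMIs or the widest ratio, the genes the study names, and the 12 highest and 12 lowest genes of a comparison by the interval bound nearest to 1. Scrublet (scanpy 1.11.5) called doublets at an expected 0.8% per 1000 cells, and these cells were kept. Other tools were scipy 1.17.1, numpy 2.4.6 and python 3.11.15, and the ratios were tested on simulated data. Alternatives changed the limits of the rule, the depth, the cells kept, the scaling and the minimum of UMIs. Leaving out cells with vessel genes at 0.1% or more and cells under 5000 UMIs were added after seeing the data.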

Additional observations from a re-analysis of the deposited data

How the results depend on the processing

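No paired analysis was possible because the animals of a condition were pooled and cells cannot be assigned to them. The number of S-phase cells was 42 in Control and 42 in TBI with a cycling limit of 0.2%, and 29 in Control without cells over 5000 genes. Their percent of all cells in Control was 2.89 and 1.38 with limits of 0.05% and 0.2%, 2.86 without cells over 10% mitochondrial UMIs, 0.999 without cells over 5000 genes, and 3.58 both with cells thinned to 5000 UMIs and with cells under 5000 UMIs left out. In TBI it was 1.95 and 0.834 with the 2 limits, 1.07 with S UMIs at least 2 times the M UMIs, 2.57 when thinned and 2.46 without cells under 5000 UMIs. The percent of TBI cycling cells in S phase was 45.4 with S at least 2 times M. Without cells over 5000 genes the ratio of shares was 1.28 and the percent of TBI cells 68.8.

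Genes at least 1.5-fold higher in TBI numbered 126 without cells over 5000 genes, 27 when thinned, 241 with a minimum of 50 UMIs and 12 with 200, and genes lower 38, 30, 240 and 16. The stem genes lower numbered 1 with the 0.05% limit, 1 with S at least 2 times M, 0 without cells over 5000 genes and 1 when thinned. The neuroblast genes higher numbered 0 with the 0.05% limit and 1 with doublets removed, without cells over 5000 genes, when thinned, with the mean over cells and without vessel-gene cells. Immediate early genes lower numbered 2 without cells over 5000 genes and 2 when thinned, and histone genes lower 10 and 2 with limits of 0.05% and 0.2% and 1 with 200 UMIs. Against mitotic cells, genes higher numbered 260 and 92 with the 2 limits, 81 without cells over 5000 genes and 54 when thinned, and genes lower 104 and 75 in the latter settings. Polymerase and fork genes higher numbered 12 with the 0.2% limit, 12 without cells over 5000 genes and 7 when thinned, and mitosis genes lower 17 and 17 in the latter settings. Against RG-like cells, 284 and 153 genes were higher in these settings and 74 lower when thinned.

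Opposite directions were found without cells over 5000 genes for Hes5 (1.30), Thrsp (1.19) and Junb (1.26). The summed TBI to Control ratio of the stem list, 0.825, was 1.19 in that setting, and that of the astrocyte list, 0.890, ran from 0.572 to 1.15 and stayed below 1 in 8 of 12 alternatives. The TBI ratio of vessel genes in S-phase to mitotic cells was 6.55 over all cells, 0.959 with doublets removed or without vessel-gene cells and 0.887 without cells over 5000 genes, and that of oligodendrocyte lineage genes to RG-like cells was 1.06 with the 0.05% limit. Thinned tables and smaller cell sets hold fewer UMIs, so fewer genes reach the minimum, and other causes were not tested. Of the other values for single named genes, 25 moved by more than their interval and 260 did not. With 1 library per condition, no setting measures the spread between animals.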
